A study of Mus musculus with 9 samples.

Results

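Liver RNA taken 2 h after an intraperitoneal injection of retrorsine at 25 mg/kg was compared with liver RNA taken 2 h after an injection of NaCl, the control group of the series. The comparison takes in 6 of the 9 libraries, namely those labelled NaCl 1, 2 and 3 and those labelled 25 mg/kg 1, 2 and 3, and all genes of the deposited table. Of 21936 genes in that table, 12557 passed the filter on low counts and were tested. All mice are labelled wild type (WT), and poly(A)-selected RNA of whole liver was sequenced. The control group received NaCl only and no retrorsine. The remaining 3 libraries, from mice given retrorsine at 50 mg/kg for the same 2 h, entered the fit to estimate the spread and are given beside the low dose where stated. The sources used here do not give the strain, sex or age of the mice. The labels number the libraries of a group without saying that each came from its own animal, so p-values measure only the spread between these samples.

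Retrorsine is a pyrrolizidine alkaloid, a plant toxin that becomes harmful once cytochrome P450 enzymes of hepatocytes oxidise it to reactive pyrroles. These bind glutathione, proteins and DNA, and in rodents retrorsine is known for injuring liver and for blocking the division of hepatocytes. Cells that meet such electrophiles switch on NRF2 (encoded by Nfe2l2), a transcription factor that binds antioxidant response elements in the promoters of conjugating and antioxidant genes. Injured hepatocytes also turn on immediate stress genes, among them the transcription factor gene Atf3, which the title of the series puts at the centre of the study.

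Levels are CPM (read counts relative to the library's TMM-scaled total), log2 fold changes are the 25 mg/kg group over the NaCl group, and a gene was called when its Benjamini-Hochberg adjusted p from edgeR's quasi-likelihood test was under 0.05. After 25 mg/kg 1690 genes, or 13.5% of those tested, were called. Of these, 741 (5.90%) were higher and 949 (7.56%) were lower. The median log2 fold change of all genes tested was 0.01.

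The direction of a change went with the length of genome a gene spans, as the plot of fold change against gene span shows. Genes spanning under 10 kb (3009 tested) had a median log2 fold change of 0.24, with 9.50% called higher and 1.76% lower. For the 1602 genes spanning over 100 kb the median was -0.73, with 1.25% called higher and 32.6% lower. A second fit therefore took each library's own trend with gene span out through an offset, which brought these medians to -0.02 and 0.00. In that fit 572 genes (4.56%) were higher and 405 (3.23%) lower, and 444 rises and 350 falls were called in both fits. Below, the value with the gene span offset is given beside the first value for many of the genes and lists. A rise or fall printed without it is not separated from the trend. Among the named genes 34 lost their call with the offset and 1 reversed. What lies behind the trend was not tested.

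**Figure D1:**
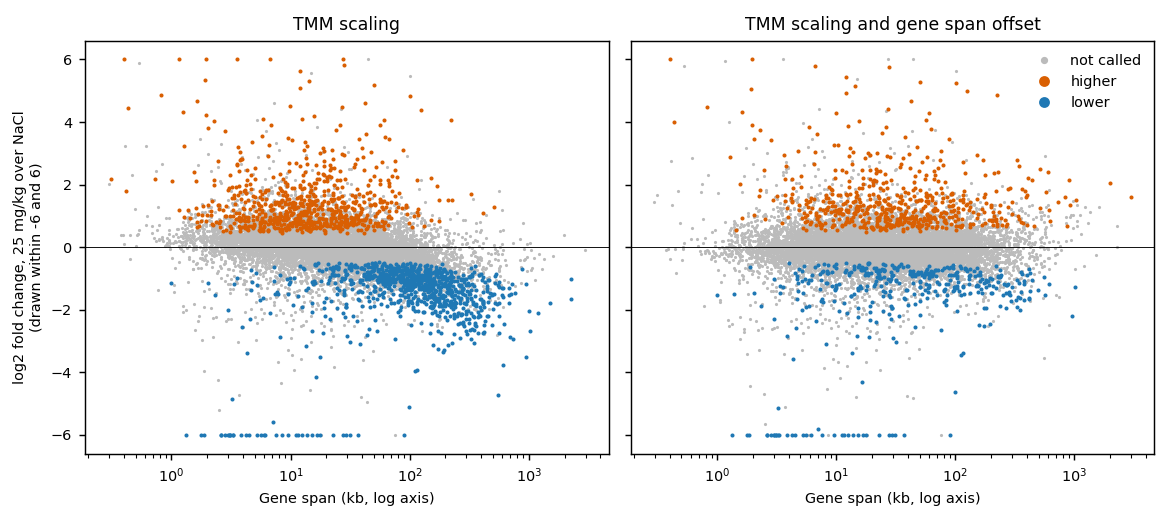
Log2 fold change of 25 mg/kg over NaCl for each of the 12557 genes tested against the genome span of the gene in kb (log axis), without the gene span offset (left) and with it (right); genes called higher are orange and genes called lower are blue. On the left the called falls gather among long genes, with a median span of 108 kb for genes called lower and 13.8 kb for genes called higher; on the right the medians of short and of long genes lie near 0.

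Total counts per library were between 15241261 and 18691736. Summed over 11 hepatocyte markers the level was 119200 to 145600 CPM with NaCl and 125700 to 161000 CPM after 25 mg/kg, and 1 of the 11 was called lower, a call that NaCl 1, NaCl 2 or any 1 of the 25 mg/kg libraries ended when left out. Markers of the acinar cells of the exocrine pancreas were a different case: all 19 tested of 20 were called lower, with a summed level of 8305, 1255 and 329 CPM in NaCl 1, 2 and 3 and of 11.97 to 19.97 CPM after 25 mg/kg. With the gene span offset 18 were called and with limma-voom 0. The count was 10, 16 or 19 without NaCl 1, 2 or 3, and 0, 3 or 0 without 25 mg/kg 1, 2 or 3. These genes are left out below. The 12 largest falls among the other genes (Pdia2, Reg3b, Ctrc, Klk1, Gp2 and Sycn among them) were also genes of pancreas or gut and followed the same libraries. Reg3b, an antibacterial lectin of gut and pancreas, stood at 74.3, 11.4 and 5.42 CPM with NaCl and 0, 0 and 0.0541 CPM after 25 mg/kg, and its call ended with limma-voom and without 25 mg/kg 1 or 3 (highest adjusted p 0.075). Of 10 Kupffer cell markers 1 was called, Cd68 (log2 fold change 0.85), with summed levels of 370 to 494 CPM against 488 to 724 CPM. All 10 had a log2 fold change above 0, with a median of 0.52, or 0.43 with the offset. By edgeR 5 of them had an unadjusted p under 0.05. The share of all genes under that threshold is not given here, so this count is not read as a change in Kupffer cells. Cd68 was not called with the offset (0.51, adjusted p = 0.14) nor without NaCl 2, 25 mg/kg 1 or 25 mg/kg 3. Of the other cell types looked for, none of the neutrophil and monocyte, lymphocyte, sinusoidal endothelial, stellate, cholangiocyte, erythroid or adipose markers was called by edgeR without the offset. Summed levels did not overlap for erythroid markers, at 49.1 to 124 CPM with NaCl and 130 to 214 CPM after 25 mg/kg, nor for lymphocyte markers, at 1.57 to 2.21 and 2.85 to 5.52 CPM. Their part in the results below was not tested. In bulk liver, fewer cells of a type and less RNA per cell cannot be told apart.

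Among the genes with the lowest p, the first after 25 mg/kg was Otud1 (ENSMUSG00000043415, GRCm38 chromosome 2, 19657752 to 19660583), which encodes an enzyme that removes ubiquitin from proteins. It stood at 2.96, 3.59 and 2.96 CPM with NaCl and 44.6, 44.6 and 36.8 CPM after 25 mg/kg, a log2 fold change of 3.72 (adjusted p = 9.4e-05, SE 0.21). Srxn1 (ENSMUSG00000032802, GRCm38 chromosome 2, 152105516 to 152111376) encodes sulfiredoxin, which restores overoxidised peroxiredoxins and is a classical NRF2 target. It stood at 46.7, 45.2 and 51.4 CPM with NaCl and 886, 758 and 803 CPM after 25 mg/kg, a log2 fold change of 4.09 (adjusted p = 0.00012, SE 0.25). In both genes every treated library lay far above every control library. Ugdh, which makes the UDP-glucuronate used in glucuronidation, stood at 46.4, 32.3 and 50.006 CPM with NaCl and 126, 142 and 101 CPM after 25 mg/kg, with a log2 fold change of 1.52 (adjusted p = 0.0038, SE 0.22). Nfe2l2 itself stood at 39.3, 31.3 and 32.7 CPM with NaCl and 58.3, 105 and 89.5 CPM after 25 mg/kg, a log2 fold change of 1.29 (adjusted p = 0.0064, SE 0.22). Sprr1a, a small proline-rich protein of stressed epithelia and regenerating nerve, was almost unread with NaCl at 0, 0.0505 and 0.151 CPM and reached 18.7, 20.4 and 35.8 CPM. It passed the filter on low counts only through retrorsine libraries, so it had to differ and its calls add no support. Its fold change rests on few control reads. With the gene span offset the log2 fold changes of Otud1, Srxn1, Ugdh, Nfe2l2 and Sprr1a were 3.42, 3.83, 1.42, 1.25 and 7.99. All 5 were called in each of 20 alternative fits.

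The 250 bases before the start site are shown for 4 of these genes, because their promoters hold letters that match the sites of stress-responsive factors. The sequences are RefSeq's for GRCm38.p6, read 5′ to 3′ on the strand of the gene. The windows are chr2:19657481-19657730, plus strand (Otud1), chr3:92485882-92486131, minus strand (Sprr1a), chr5:65435843-65436092, minus strand (Ugdh) and chr2:75704664-75704913, minus strand (Nfe2l2). Capitals mark matches, on either strand, to the antioxidant response element core TGACNNNGC or to the AP-1 site TGACTCA.
Otud1: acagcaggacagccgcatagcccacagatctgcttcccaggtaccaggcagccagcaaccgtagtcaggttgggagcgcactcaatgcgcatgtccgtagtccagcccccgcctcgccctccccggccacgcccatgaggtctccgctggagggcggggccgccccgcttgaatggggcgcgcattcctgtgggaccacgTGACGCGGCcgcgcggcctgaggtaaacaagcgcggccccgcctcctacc
Sprr1a: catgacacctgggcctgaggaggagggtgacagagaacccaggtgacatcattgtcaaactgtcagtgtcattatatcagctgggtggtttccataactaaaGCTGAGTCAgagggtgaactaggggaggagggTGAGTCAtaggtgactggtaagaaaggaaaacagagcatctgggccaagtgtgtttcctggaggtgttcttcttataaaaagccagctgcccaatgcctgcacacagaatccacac
Ugdh: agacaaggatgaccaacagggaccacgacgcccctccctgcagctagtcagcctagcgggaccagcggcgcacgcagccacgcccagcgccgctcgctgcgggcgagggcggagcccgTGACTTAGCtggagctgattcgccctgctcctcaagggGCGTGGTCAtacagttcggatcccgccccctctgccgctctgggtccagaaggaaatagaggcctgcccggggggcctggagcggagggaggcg
Nfe2l2: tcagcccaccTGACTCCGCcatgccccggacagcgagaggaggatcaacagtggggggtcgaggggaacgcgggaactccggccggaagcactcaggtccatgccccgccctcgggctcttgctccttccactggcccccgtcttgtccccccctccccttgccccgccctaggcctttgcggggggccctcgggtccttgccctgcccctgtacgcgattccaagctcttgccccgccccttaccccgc
In Otud1 the ARE core match lies 50 to 42 bases before the start site, and in Nfe2l2 240 to 232 bases before it. Ugdh holds a pair of ARE core matches, at 132 to 124 and 94 to 86 bases before the start. In Sprr1a an ARE core match and an AP-1 match share letters at 148 to 140 bases before the start, and another AP-1 match lies at 116 to 110 bases. Srxn1 has no match in this window to these motifs or to the cAMP response element TGACGTCA. A match is a description of letters and not evidence that a factor was bound.

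Windows were found for 10012 of the genes tested. The ARE core was present in 11.9% of all of them, in 13.4% of those of genes called higher and in 11.2% of those of genes called lower. The AP-1 site was in 3.18%, 4.51% and 2.41%, and the cAMP response element, TGACGTCA, in 2.56%, 4.01% and 2.41%. These shares are given as counts of letters within 250 bases and were not tested. The AP-1 site, read on both strands, can overlap the ARE core, as it does in Sprr1a.

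Conjugating enzymes, which attach glutathione, glucuronic acid or sulfate to foreign and endogenous compounds, were among the groups with the most rises. Of 43 members tested 13 (30.2%) were called higher and 0 lower, beside 5.90% and 7.56% of all genes. The median log2 fold change was 0.44. With the gene span offset 8 were higher, where 4.56% of all genes were, and the median was 0.29. Ugt2b35, a UDP-glucuronosyltransferase, stood at 64.1, 59.1 and 76.9 CPM with NaCl and 217, 273 and 229 CPM after 25 mg/kg, a log2 fold change of 1.85 (adjusted p = 0.0016, SE 0.22). The treated libraries did not overlap the controls. Gsta1, an alpha-class glutathione transferase, stood at 0.403, 0.202 and 0.201 CPM with NaCl and 12.5, 15.9 and 11.1 CPM after 25 mg/kg, and Ugt2b37 at 0, 0.101 and 0.151 CPM with NaCl and 2.79, 2.99 and 5.79 CPM after 25 mg/kg. Both were near 0 in the control libraries, so their log2 fold changes of 5.62 and 5.31 rest on few control reads. They passed the filter on low counts only through retrorsine libraries and had to differ. Their calls, which are among the 13, add no support. Gsta1 and the Ugt2b genes also have near-identical copies, between which reads may have been divided. Of the thioredoxin, peroxiredoxin and peroxide removal genes, 4 of 32 (12.5%) rose and 0 fell (median 0.27), and with the offset 7 rose. The same shares of all genes apply. Gpx1, the main cytosolic glutathione peroxidase of liver, stood at 2024, 2024 and 1915 CPM with NaCl and 4315, 3738 and 3265 CPM after 25 mg/kg, a log2 fold change of 0.92 (adjusted p = 0.0046, SE 0.14), and with the offset 0.56. Gclc, the catalytic subunit of glutathione synthesis, was at 326, 311 and 307 CPM with NaCl and at 748, 933 and 533 CPM after 25 mg/kg, and its log2 fold change with the offset was 1.29 (adjusted p = 0.01). Oser1, an oxidative stress responsive gene, rose by 1.06 (SE 0.17) on the log2 scale. Conjugating enzymes called higher numbered 8, 6 or 6 without NaCl 1, 2 or 3, and 6, 8 or 9 without 25 mg/kg 1, 2 or 3. For thioredoxin and peroxide genes these counts were 3, 3 or 4 without NaCl 1, 2 or 3, and 4, 3 or 3 without 25 mg/kg 1, 2 or 3.

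By the authors' deposited FPKM values, which divide by gene length, Gpx1 had a mean of 1407 with NaCl and 2659 after 25 mg/kg, and Srxn1 17.3 and 295. Per length, Gpx1 thus stayed the more abundant transcript although Srxn1 had the larger fold change. Gpx4, the lipid peroxidase that opposes ferroptosis, stood at 173, 204 and 166 CPM with NaCl and 263, 192 and 204 CPM after 25 mg/kg, and these groups overlapped (log2 fold change 0.28 (adjusted p = 0.37, SE 0.19), with the offset 0.05). Hmox1, haem oxygenase, overlapped as well, at 228, 24 and 50.6 CPM with NaCl and 74.8, 59.2 and 44.5 CPM after 25 mg/kg. Slc7a11, the cystine transporter, was listed with at most a few reads per library and was not tested. Cyp3a11, a P450 of the family that oxidises pyrrolizidine alkaloids, stood at 3221, 3153 and 2714 CPM with NaCl and 3764, 3657 and 3377 CPM after 25 mg/kg and was not called (adjusted p = 0.39).

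Atf3 stood at 42.8, 7.02 and 12.7 CPM with NaCl and 193, 143 and 183 CPM after 25 mg/kg, and the lowest treated library was above the highest control. Its log2 fold change was 3.06 (adjusted p = 0.013, SE 0.63), and with the offset 3.20 (adjusted p = 0.02). NaCl 1 was the highest control, and without NaCl 3 the Atf3 call ended at an adjusted p of 0.058, the highest over 20 alternatives. Trib3, a pseudokinase induced by the integrated stress response, stood at 4.64, 4.4 and 3.51 CPM with NaCl and 34.7, 47.1 and 40.1 CPM after 25 mg/kg without overlap, a log2 fold change of 3.28 (adjusted p = 0.00057, SE 0.29). Mknk2, a kinase that phosphorylates the translation initiation factor eIF4E, stood at 124, 195 and 156 CPM with NaCl and 759.7, 658 and 644 CPM after 25 mg/kg, a log2 fold change of 2.12 (adjusted p = 0.00072, SE 0.19). Pvr, the poliovirus receptor and a ligand of natural killer cell receptors, rose by 3.01 (SE 0.26), and Ccdc120, a coiled-coil protein, by 3.08 (SE 0.23). Ncdn, which encodes neurochondrin, rose by 2.43 (SE 0.21). Trib3, Mknk2, Pvr, Ccdc120 and Ncdn were called in all 20 alternatives, and with the offset their log2 fold changes were 3.04, 1.93, 2.85, 2.94 and 2.21.

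**Figure D2:**
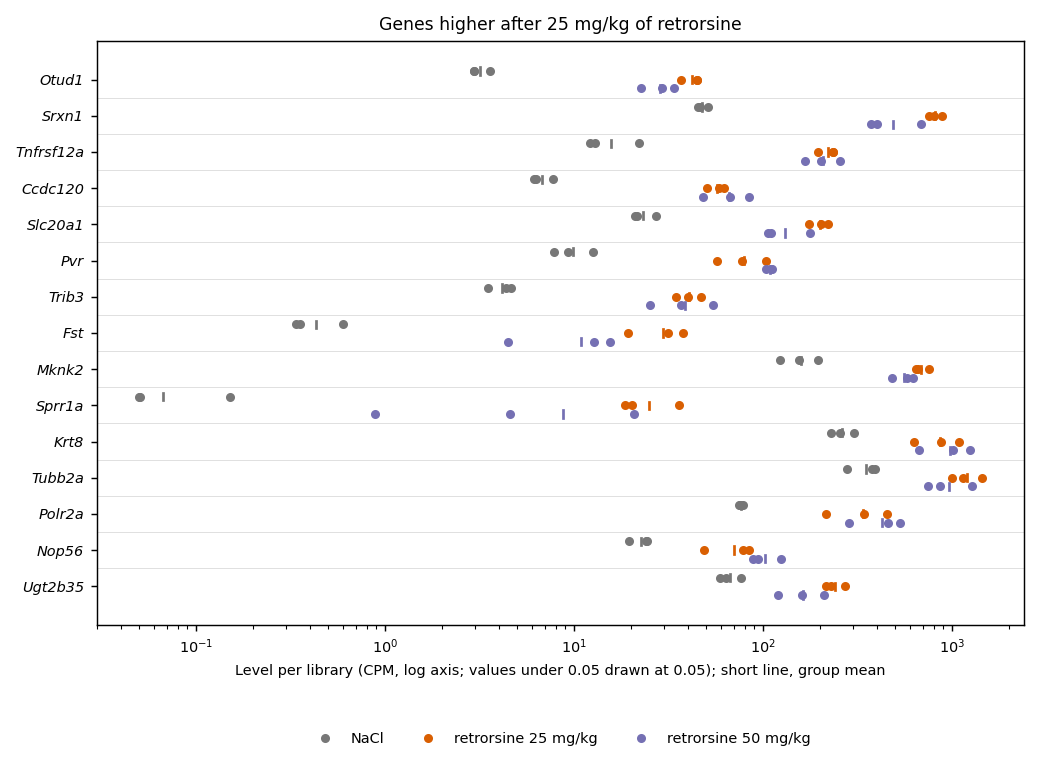
Levels of 15 genes called higher after 25 mg/kg, in CPM per library on a log axis, with NaCl in grey, 25 mg/kg in orange and 50 mg/kg in purple; each dot is a library and the short line is the group mean. In each of the 15 genes the 3 orange dots lie to the right of the 3 grey dots.

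Surface receptors and secreted regulators were among the genes that rose from a low level. Tnfrsf12a, the receptor of the cytokine TWEAK, stood at 22.1, 12.2 and 13 CPM with NaCl and 234, 196 and 235 CPM after 25 mg/kg, a log2 fold change of 3.81 (adjusted p = 0.00038, SE 0.27). Epha2, an ephrin receptor, stood at 12.4, 24 and 20.5 CPM with NaCl and 129, 128 and 184 CPM after 25 mg/kg, a log2 fold change of 2.95 (adjusted p = 0.0019, SE 0.36). Fst, which encodes follistatin, a secreted inhibitor of activin, stood at 0.336, 0.354 and 0.602 CPM with NaCl and 38, 19.3 and 31.4 CPM after 25 mg/kg, a log2 fold change of 6.06 (adjusted p = 0.00071, SE 0.55). In all of these the groups were well apart, and with the offset the log2 fold changes were 3.46, 2.90 and 5.80. Fst passed the filter on low counts only through retrorsine libraries, so it had to differ and its call adds no support. Sema4f, a transmembrane semaphorin, was at 0.134, 0 and 0.0502 CPM with NaCl and 5.8, 2.33 and 2.49 CPM after 25 mg/kg, and Bmp8b, a bone morphogenetic protein, was at 0, 0.202 and 0.251 and 4.61, 1.13 and 5.36 CPM. Both are low transcripts, and Bmp8b overlaps neighbouring genes whose reads cannot be told apart from its own without a stated strand setting. The sodium-dependent phosphate transporter Slc20a1 stood at 27, 21 and 21.5 CPM with NaCl and 221, 203 and 175 CPM after 25 mg/kg, a log2 fold change of 3.11 (adjusted p = 0.00042, SE 0.24). Myom1 and Casq1, known from muscle, were also higher: Myom1 stood at 1.82, 5.05 and 2.56 CPM with NaCl and 54.7, 30.6 and 114 CPM after 25 mg/kg, and Casq1 at 0.0672, 0.101 and 0.251 CPM with NaCl and 3.87, 1.66 and 4.87 CPM after 25 mg/kg. The Myom1 call ended without NaCl 1 or NaCl 3 (highest adjusted p 0.061), while that of Casq1 held in all 20 alternatives. However, Casq1, Sema4f and Bmp8b passed the filter on low counts only through retrorsine libraries. They had to differ, so their calls, in whichever fit, add no support.

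Among TNF receptors, caspases and the Bcl2 family 6 of 48 rose and 2 fell, and with the offset 4 rose and 2 fell. Without the offset the shares are 12.5% and 4.17%, beside 5.90% and 7.56% of all genes. The group's median log2 fold change was -0.05, so most members did not follow Tnfrsf12a. Bcl2l11, which encodes the pro-apoptotic protein BIM, stood at 9.28, 6.97 and 6.53 CPM with NaCl and 19.8, 35.3 and 27.5 CPM after 25 mg/kg, a log2 fold change of 1.86 (adjusted p = 0.0064, SE 0.31). Mcl1, an anti-apoptotic relative, stood at 116, 66.2 and 97.2 CPM with NaCl and 182, 161 and 166 CPM after 25 mg/kg (0.87 (adjusted p = 0.023, SE 0.20)). The groups did not overlap in either gene, but Mcl1 spans 4.39 kb and was not called with the offset (log2 fold change 0.57 (adjusted p = 0.15)) nor without NaCl 3, 25 mg/kg 1 or 25 mg/kg 3, its highest adjusted p being 0.15. Rises in this group numbered 3, 3 or 3 without NaCl 1, 2 or 3, and 3, 5 or 2 without 25 mg/kg 1, 2 or 3, and falls 1, 1 or 1 without NaCl 1, 2 or 3, and 1, 0 or 0 without 25 mg/kg 1, 2 or 3. Activin, BMP and TGF-beta signalling gave 4 rises and 7 falls among 45 (median -0.25), and 4 and 5 with the offset. These are 8.89% and 15.6%, beside 5.90% and 7.56% of all genes. Besides Fst, whose call adds no support as stated above, Tgif1, a repressor of TGF-beta target genes, rose by 1.67 (SE 0.23). Ski, another such repressor, fell by 1.16 on the log2 scale, and Smurf1, a ubiquitin ligase that removes SMAD proteins, by 1.42. Its rises numbered 3, 2 or 2 without NaCl 1, 2 or 3, and 3, 3 or 2 without 25 mg/kg 1, 2 or 3, and its falls 4, 6 or 4 without NaCl 1, 2 or 3, and 3, 8 or 3 without 25 mg/kg 1, 2 or 3.

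Of 35 MAP kinase phosphatases, which switch off the ERK, JNK and p38 kinases, and receptor feedback genes, 6 rose and 5 fell (median -0.08). That is 17.1% and 14.3%, beside 5.90% and 7.56% of all genes. Dusp10, a phosphatase of JNK and p38, stood at 6.05, 5.25 and 4.32 CPM with NaCl and 54.7, 50.6 and 75.7 CPM after 25 mg/kg, a log2 fold change of 3.54 (adjusted p = 0.0011, SE 0.38). Dusp6, which acts on ERK, stood at 31.3, 26.2 and 45.7 CPM with NaCl and 80.4, 107 and 157 CPM after 25 mg/kg, a log2 fold change of 1.74 (adjusted p = 0.0063, SE 0.29). Dusp1 stood at 73.7, 53.6 and 56 CPM with NaCl and 159, 151 and 193 CPM after 25 mg/kg. The groups were apart in all 3, and with the offset the log2 fold changes were 3.76, 1.46 and 1.65. Tgfa, which encodes a ligand of the epidermal growth factor receptor, went the other way, from 19.6, 10.7 and 15.5 CPM to 3.98, 4.99 and 4.55 CPM, a log2 fold change of -1.76 (adjusted p = 0.0052, SE 0.28) and -1.41 with the offset. With the offset 6 members were higher and 2 lower. Rises numbered 5, 4 or 3 without NaCl 1, 2 or 3, and 4, 5 or 3 without 25 mg/kg 1, 2 or 3; falls numbered 3, 4 or 4 without NaCl 1, 2 or 3, and 2, 5 or 2 without 25 mg/kg 1, 2 or 3.

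Several genes of the cytoskeleton rose. Among actins, tubulins and keratins 10 of 29 were higher and 1 was lower, with a median of 0.49, and 5 rose with the offset. Without the offset the shares are 34.5% and 3.45%, beside 5.90% and 7.56% of all genes. Krt8, a keratin of hepatocytes, stood at 229.9, 303 and 256 CPM with NaCl and 1085, 876 and 633 CPM after 25 mg/kg, a log2 fold change of 1.72 (adjusted p = 0.0046, SE 0.26). Its partner Krt18 stood at 189.7, 172 and 202 CPM with NaCl and 677, 511 and 456 CPM after 25 mg/kg, a log2 fold change of 1.54 (adjusted p = 0.0029, SE 0.21). Both keratins of the hepatocyte filament pair were thus higher in every treated library. Tubb2a, a beta tubulin, stood at 392, 379 and 279.95 CPM with NaCl and 1448, 999.97 and 1148 CPM after 25 mg/kg, a log2 fold change of 1.78 (adjusted p = 0.0027, SE 0.24), and Tubb6, another, rose by 1.92 (SE 0.32). Beta tubulins are similar in sequence, so some of their reads may have been divided. Targets of the Hippo pathway and of serum response factor gave 6 rises and 3 falls among 44 (median -0.11), and 6 and 2 with the offset. Their shares of 13.6% and 6.82% stand beside 5.90% and 7.56% of all genes. Zyx, zyxin of focal adhesions, rose by 1.45 (SE 0.22), and Anxa5, annexin A5, by 1.44 (SE 0.19), while Tead1, a DNA-binding partner of YAP, fell by 1.83. Cytoskeletal rises numbered 6, 7 or 4 without NaCl 1, 2 or 3, and 6, 9 or 5 without 25 mg/kg 1, 2 or 3, and rises among Hippo and SRF targets 5, 4 or 3 without NaCl 1, 2 or 3, and 4, 5 or 3 without 25 mg/kg 1, 2 or 3. The 1 cytoskeletal fall was absent without NaCl 2, NaCl 3 or any 1 of the 25 mg/kg libraries, and falls among Hippo and SRF targets numbered 2, 2 or 1 without NaCl 1, 2 or 3, and 2, 3 or 1 without 25 mg/kg 1, 2 or 3.

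Polr2a, the largest subunit of RNA polymerase II, stood at 75.2, 76 and 78.2 CPM with NaCl and 345, 216 and 456 CPM after 25 mg/kg, a log2 fold change of 2.15 (adjusted p = 0.0028, SE 0.30), and with the offset 2.06. The control libraries were within a narrow range and every treated library was above them. Brd2, a bromodomain protein that binds acetylated histones, stood at 179.5, 109.9 and 139 CPM with NaCl and 351, 263 and 452 CPM after 25 mg/kg (1.32 (adjusted p = 0.014, SE 0.28)), and its call ended without NaCl 2, NaCl 3 or 25 mg/kg 3 (highest adjusted p 0.061). Med13l, a part of the Mediator kinase module, went from 35.5, 26 and 30.2 CPM to 5.52, 6.78 and 6.06 CPM, a log2 fold change of -2.32 (adjusted p = 0.0036, SE 0.34) and -1.47 with the offset. In all, 5 of 40 elongation control genes rose and 1 fell (median 0.18), with the same counts under the offset. Without the offset these are 12.5% and 2.5%, beside 5.90% and 7.56% of all genes. Rises there numbered 3, 1 or 1 without NaCl 1, 2 or 3, and 2, 4 or 1 without 25 mg/kg 1, 2 or 3.

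Ribosome biogenesis factors gave 11 rises and 1 fall among 44, a median of 0.41, and 8 rises with the offset. Without the offset this is 25% and 2.27%, beside 5.90% and 7.56% of all genes. Nop56, a core protein of the box C/D particles that methylate ribosomal RNA, stood at 24.1, 19.6 and 24.4 CPM with NaCl and 78.2, 48.7 and 84.9 CPM after 25 mg/kg, a log2 fold change of 1.64 (adjusted p = 0.0034, SE 0.23). Gnl3, which encodes nucleostemin, stood at 16.3, 10.004 and 15.1 CPM with NaCl and 33.4, 26.7 and 41.8 CPM after 25 mg/kg (1.30 (adjusted p = 0.0071, SE 0.23)). Nob1, the nuclease that finishes the small subunit RNA, rose by 1.41 (SE 0.26), and Utp4, of the small subunit processome, by 1.03 (SE 0.19). These 4 kept their calls in all 20 alternatives, with values under the offset of 1.35, 1.04, 1.20 and 0.99; Nop56 and Gnl3 overlap a gene on the other strand. Rises of this group numbered 11, 7 or 4 without NaCl 1, 2 or 3, and 5, 16 or 4 without 25 mg/kg 1, 2 or 3.

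Ribosomal protein genes, which are short, behaved differently under the offset. Of 82 tested 8 (9.76%) were called higher, beside 5.90% of all genes, with a median of 0.33. With the offset 1 was called and the median was 0.05. Rpl10a rose by 0.63 (SE 0.14) without the offset and was at 0.32 (adjusted p = 0.19) with it, and its call also ended without NaCl 3, 25 mg/kg 1 or 25 mg/kg 3 (highest adjusted p 0.19). The member still called under the offset, Rps2, was high in some treated libraries only. It stood at 95.1, 102 and 81.6 CPM with NaCl, 124, 919.5 and 924 CPM after 25 mg/kg and 104, 131 and 139.8 CPM after 50 mg/kg. Thus 25 mg/kg 2 and 3 were far above the rest, while 25 mg/kg 1 was near the other groups; Rps2 has many near-identical copies, and its call ended without NaCl 1, NaCl 3 or 25 mg/kg 3 (highest adjusted p 0.061). Rises of ribosomal protein genes numbered 1, 4 or 0 without NaCl 1, 2 or 3, and 1, 2 or 1 without 25 mg/kg 1, 2 or 3. Mitochondrial ribosomal proteins gave 1 rise among 77 (Mrpl33), whose call ended with any 1 library of NaCl or of 25 mg/kg left out.

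Replication-dependent histone genes, whose messages normally lack a poly(A) tail, were the group with the highest median. Of 64 members 21 passed the filter, and of these 11 (52.4%) were called higher and 0 lower, beside 5.90% and 7.56% of all genes. Their median was 2.42. With the offset 7 were higher and the median was 2.03. The 43 that were filtered out had too few reads to test, and a gene that passes only through the group in which it is high had to differ, so this count and median cannot be read as those of all histone genes. H1f2, a linker histone, stood at 9.08, 3.23 and 2.71 CPM with NaCl and 29.4, 21.9 and 27.4 CPM after 25 mg/kg, a log2 fold change of 2.40 (adjusted p = 0.011, SE 0.47), and was called in all 20 alternatives. H4c14 stood at 0.807, 0.657 and 0.201 CPM with NaCl and 13.1, 1.46 and 27 CPM after 25 mg/kg, with 25 mg/kg 2 close to the controls, and its call ended without any 1 of the NaCl libraries and without 25 mg/kg 1 or 3 (highest adjusted p 0.17). Core histone genes have near-identical copies, so the division of reads between them is uncertain. Histone rises numbered 5, 5 or 2 without NaCl 1, 2 or 3, and 2, 11 or 3 without 25 mg/kg 1, 2 or 3. The share of non-polyadenylated RNA in these libraries was not measured.

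SR proteins and splicing kinases gave 6 rises and 0 falls among 37 (median 0.38), and 3 rises with the offset. Without the offset the rises are 16.2%, beside 5.90% of all genes. Srsf6, a splicing regulator, stood at 126, 112 and 118 CPM with NaCl and 189, 179 and 192 CPM after 25 mg/kg (0.66 (adjusted p = 0.0097, SE 0.12)), a small but separated difference that was not called with the offset (log2 fold change 0.39 (adjusted p = 0.098)). These rises numbered 1, 2 or 1 without NaCl 1, 2 or 3, and 1, 3 or 1 without 25 mg/kg 1, 2 or 3. Of 294 tested zinc finger genes named Zfp, 18 rose and 9 fell, which is 6.12% and 3.06% against 5.90% and 7.56% of all genes tested, with a median of 0.27. Zfp948 rose by 2.24 (SE 0.34) and Zfp622, a ribosome assembly factor in yeast as Rei1, by 1.30 (SE 0.20), and Zfp618 fell by 3.26. Zfp rises numbered 11, 10 or 8 without NaCl 1, 2 or 3, and 12, 21 or 6 without 25 mg/kg 1, 2 or 3, and Zfp falls 4, 7 or 4 without NaCl 1, 2 or 3, and 5, 9 or 4 without 25 mg/kg 1, 2 or 3.

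Among deubiquitinases and ubiquitin genes 5 of 60 rose and 5 fell (5 and 2 with the offset; median -0.00). Ubb, a polyubiquitin gene, stood at 427, 427 and 329 CPM with NaCl and 1206, 677 and 1147 CPM after 25 mg/kg, a log2 fold change of 1.36 (adjusted p = 0.006, SE 0.22). Usp2, a circadian deubiquitinase, stood at 35.4, 26.9 and 27.3 CPM with NaCl and 7, 6.38 and 5.58 CPM after 25 mg/kg, a log2 fold change of -2.24 (adjusted p = 0.0057, SE 0.36) and -2.28 with the offset. Groups were separate in both, with 25 mg/kg 2 the lowest treated library for Ubb. Sqstm1, the autophagy adaptor p62, stood at 550.1, 455 and 436 CPM with NaCl and 1232, 1216 and 1028 CPM after 25 mg/kg, a log2 fold change of 1.27 (adjusted p = 0.0038, SE 0.19). Gabarapl1, which coats autophagosomes, stood at 47.7, 60.6 and 55.6 CPM with NaCl and 113, 265 and 131 CPM after 25 mg/kg, with 25 mg/kg 2 the highest. Tfe3, a transcription factor of lysosomal genes, rose by 1.31 (SE 0.23). Atg2b, which carries lipid to the growing autophagosome, fell by 0.99 and had -0.73 with the offset. Autophagy and lysosome genes gave 6 rises and 5 falls among 57, and 5 and 2 with the offset. The shares of rises and falls were 8.33% and 8.33% for deubiquitinases and 10.5% and 8.77% for autophagy, beside 5.90% and 7.56% of all genes. Their rises numbered 3, 3 or 3 without NaCl 1, 2 or 3, and 3, 5 or 3 without 25 mg/kg 1, 2 or 3, and their falls 3, 3 or 2 without NaCl 1, 2 or 3, and 1, 3 or 1 without 25 mg/kg 1, 2 or 3. For deubiquitinases the counts of rises were 3, 4 or 3 without NaCl 1, 2 or 3, and 3, 5 or 3 without 25 mg/kg 1, 2 or 3, and those of falls 4, 5 or 3 without NaCl 1, 2 or 3, and 3, 6 or 3 without 25 mg/kg 1, 2 or 3.

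Proteasome subunits had 3 rises among 37 (median 0.25), namely Psmd8, Psmb4 and Psmd11. Psmd8, of the regulatory lid, stood at 127, 115 and 109.8 CPM with NaCl and 216, 172 and 197 CPM after 25 mg/kg (0.74 (adjusted p = 0.0097, SE 0.14); 0.48 (adjusted p = 0.062) with the offset), and the groups did not overlap, but without NaCl 3 it was not called (highest adjusted p 0.062). With the offset 1 subunit was called, Psmd11 at 0.77 (adjusted p = 0.016). Rises numbered 1, 1 or 0 without NaCl 1, 2 or 3, and 1, 4 or 1 without 25 mg/kg 1, 2 or 3.

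Single genes of lipid and sugar metabolism rose or fell. Acaca (ENSMUSG00000020532, GRCm38 chromosome 11, 84129672 to 84401651) and Acacb encode the acetyl-CoA carboxylases that make malonyl-CoA. Acaca stood at 249.6, 194 and 240.5 CPM with NaCl and 48.9, 59 and 43 CPM after 25 mg/kg, a log2 fold change of -2.18 (adjusted p = 0.00055, SE 0.18), and with the offset -1.22 (adjusted p = 0.0043). Acacb stood at 375, 445 and 483 CPM with NaCl and 122, 119 and 135 CPM after 25 mg/kg, a log2 fold change of -1.79 (adjusted p = 0.00055, SE 0.15), and with the offset -1.31 (adjusted p = 0.004). Both were lower in every treated library and were called in all 20 alternatives. Gpam, which starts glycerolipid synthesis, stood at 1149, 914 and 1298 CPM with NaCl and 528, 553 and 469.6 CPM after 25 mg/kg (-1.12 (adjusted p = 0.011, SE 0.22)). Lrp1, a receptor for lipoprotein remnants, fell by 1.54 on the log2 scale. Lpin2, a phosphatidate phosphatase of the lipin family, went up instead, standing at 194, 176 and 205 CPM with NaCl and 644, 1105 and 641 CPM after 25 mg/kg, a log2 fold change of 2.05 (adjusted p = 0.0073, SE 0.36). Cidec, a lipid droplet protein, stood at 6.52, 5 and 5.02 CPM with NaCl and 42.9, 23.3 and 40.8 CPM after 25 mg/kg, a log2 fold change of 2.70 (adjusted p = 0.002, SE 0.34), and Angptl4, an inhibitor of lipoprotein lipase, rose by 1.34 (SE 0.25). Scd1, the stearoyl-CoA desaturase, stood at 1599, 1735 and 2321 CPM with NaCl and 4152, 4979 and 3319.8 CPM after 25 mg/kg without overlap, but it was called neither with the offset (0.97 (adjusted p = 0.083)) nor with any 1 library of NaCl or of 25 mg/kg left out (highest adjusted p 0.1). Gpam lost its call without 25 mg/kg 3 (adjusted p 0.054).

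In the lipoprotein and lipid droplet group 5 of 46 rose and 3 fell (median 0.08; 5 and 2 with the offset). These are 10.9% and 6.52%, against 5.90% and 7.56% of all genes. Its rises numbered 3, 3 or 3 without NaCl 1, 2 or 3, and 3, 4 or 3 without 25 mg/kg 1, 2 or 3, and its falls 3, 2 or 2 without NaCl 1, 2 or 3, and 2, 2 or 1 without 25 mg/kg 1, 2 or 3. Glycolysis, glycogen and fructose genes gave 1 rise and 4 falls among 38 (median -0.15), and 5 falls with the offset. The falls are 10.5% of the list. Ppp1r3b, which brings a phosphatase to glycogen, stood at 359, 336 and 298 CPM with NaCl and 72.1, 86.8 and 107 CPM after 25 mg/kg, a log2 fold change of -1.90 (adjusted p = 0.0036, SE 0.28). Pfkfb1, the liver enzyme that sets fructose 2,6-bisphosphate, stood at 100.1, 101 and 93.7 CPM with NaCl and 30.4, 34.8 and 36.5 CPM after 25 mg/kg, a log2 fold change of -1.54 (adjusted p = 0.0011, SE 0.16). The control and treated ranges were far apart in both, and the offset left -2.09 and -1.36. Aldoa, an aldolase of most tissues outside liver, was the rise, at 96, 109 and 92.3 CPM with NaCl and 188, 143 and 189 CPM after 25 mg/kg (0.81 (adjusted p = 0.012, SE 0.16)), and its call ended without NaCl 3, 25 mg/kg 1 or 25 mg/kg 3 (highest adjusted p 0.061). Falls numbered 4, 4 or 3 without NaCl 1, 2 or 3, and 4, 4 or 3 without 25 mg/kg 1, 2 or 3.

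Among genes of the urea cycle and amino acid breakdown 4 of 43 fell and 0 rose, with a median of 0.03; the falls are 9.3% against 7.56% of all genes. Glul, glutamine synthetase of the hepatocytes around the central vein, stood at 830.4, 641 and 692 CPM with NaCl and 296, 385 and 277 CPM after 25 mg/kg, a log2 fold change of -1.18 (adjusted p = 0.014, SE 0.24) and -1.38 with the offset. All treated libraries were lower than all controls, and the call ended without 25 mg/kg 1 or 25 mg/kg 3 (highest adjusted p 0.065). Csad, which makes hypotaurine from cysteine, varied widely among controls, at 41.3, 138 and 75.8 CPM, and stood at 27.1, 16.2 and 16.5 CPM after 25 mg/kg; its call ended without NaCl 2, NaCl 3 or any 1 of the 25 mg/kg libraries (highest adjusted p 0.1). These falls numbered 2, 1 or 1 without NaCl 1, 2 or 3, and 2, 1 or 0 without 25 mg/kg 1, 2 or 3. One-carbon, serine, methionine and NAD genes gave 2 rises and 2 falls among 36. Mat2a, the methionine adenosyltransferase of dividing cells, stood at 38.1, 34.5 and 38.7 CPM with NaCl and 68.7, 62.3 and 85.2 CPM after 25 mg/kg (0.96 (adjusted p = 0.01, SE 0.18)), and Nadk, the cytosolic NAD kinase, at 399, 383 and 325 CPM with NaCl and 653, 530.1 and 591 CPM after 25 mg/kg (0.68 (adjusted p = 0.022, SE 0.16)). The groups were separate in both, but the Nadk call ended without NaCl 2, NaCl 3, 25 mg/kg 1 or 25 mg/kg 3 (highest adjusted p 0.093). Rises there numbered 2, 1 or 1 without NaCl 1, 2 or 3, and 1, 2 or 1 without 25 mg/kg 1, 2 or 3, and falls 0, 0 or 0 without NaCl 1, 2 or 3, and 1, 1 or 0 without 25 mg/kg 1, 2 or 3.

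Of hepatocyte transporters 3 of 32 rose and 1 fell, and with the offset 5 rose. Without the offset that is 9.38% and 3.12%, beside 5.90% and 7.56% of all genes. Besides Slc20a1, Abcb4, the phospholipid pump of bile, stood at 123, 112 and 125 CPM with NaCl and 191, 293 and 217 CPM after 25 mg/kg (0.96 (adjusted p = 0.02, SE 0.22); 1.19 (adjusted p = 0.012) with the offset). Slc10a2, the bile acid transporter known from ileum and bile ducts, stood at 3.9, 3.89 and 1 CPM with NaCl and 31.7, 37.4 and 6.5 CPM after 25 mg/kg, with 25 mg/kg 3 close to the highest controls, and was called neither without any 1 of the NaCl libraries nor without 25 mg/kg 1 or 2 (highest adjusted p 0.073). The Abcb4 call ended without any 1 NaCl library and without 25 mg/kg 2 or 3 (highest adjusted p 0.067). Transporter rises numbered 1, 1 or 1 without NaCl 1, 2 or 3, and 2, 1 or 2 without 25 mg/kg 1, 2 or 3. Amino acid transporters gave 2 rises (6.9%) and 3 falls (10.3%) among 29. Slc25a47, a mitochondrial carrier of liver, stood at 520.01, 449.7 and 455 CPM with NaCl and 1316, 1712 and 787 CPM after 25 mg/kg, a log2 fold change of 1.42 (adjusted p = 0.011, SE 0.28). Slc43a1, a carrier of branched-chain amino acids, stood at 38.6, 35.1 and 50.5 CPM with NaCl and 12.2, 15.8 and 16.3 CPM after 25 mg/kg, a log2 fold change of -1.49 (adjusted p = 0.013, SE 0.31), a call that ended without NaCl 3 or 25 mg/kg 1 (highest adjusted p 0.06). Amino acid transporter rises numbered 1, 2 or 1 without NaCl 1, 2 or 3, and 1, 2 or 1 without 25 mg/kg 1, 2 or 3, and falls 2, 2 or 1 without NaCl 1, 2 or 3, and 2, 4 or 1 without 25 mg/kg 1, 2 or 3 and 5 without 50 mg/kg 3.

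The insulin and growth hormone axis had more falls than rises, 9 against 3 among 39, with a median of -0.37. These are 23.1% and 7.69%, beside 7.56% and 5.90% of all genes. With the offset the falls were 3 and the rises 4, so the balance depended on the gene span trend. Mtor, the kinase of the nutrient-sensing complexes, stood at 88.1, 90.9 and 86.2 CPM with NaCl and 40.006, 43.3 and 39.3 CPM after 25 mg/kg, a log2 fold change of -1.11 (adjusted p = 0.0038, SE 0.16), and -0.61 (adjusted p = 0.047) with the offset. Rptor, its partner, spans 297 kb and was at -1.03 (SE 0.17) without the offset and -0.03 (adjusted p = 0.95) with it. Insr, the insulin receptor, likewise went from -1.47 (adjusted p = 0.0065, SE 0.25) to -0.76 (adjusted p = 0.054). Sgk2, a kinase downstream of phosphoinositide 3-kinase, rose, standing at 29.8, 25.1 and 30.2 CPM with NaCl and 132, 89.1 and 105 CPM after 25 mg/kg, with 1.94 (adjusted p = 0.0042, SE 0.29) and 1.88 under the offset. Falls in this group numbered 5, 7 or 6 without NaCl 1, 2 or 3, and 5, 10 or 5 without 25 mg/kg 1, 2 or 3, and rises 1, 2 or 2 without NaCl 1, 2 or 3, and 2, 3 or 1 without 25 mg/kg 1, 2 or 3.

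Of 29 hepatocyte transcription factors 9 (31%) were called lower and 0 higher, beside 7.56% and 5.90% of all genes, with a median of -0.29. With the offset 4 were called, while 3.23% of all genes were called lower. The median was then -0.40, which is lower and not nearer to 0. Nfia, a nuclear factor I gene, stood at 52.5, 33.1 and 36.6 CPM with NaCl and 4.04, 10.7 and 4.93 CPM after 25 mg/kg, a log2 fold change of -2.64 (adjusted p = 0.0059, SE 0.43) and -1.63 (adjusted p = 0.021) with the offset. Onecut2, a homeobox gene of liver and bile duct development, stood at 71.3, 48.1 and 47.7 CPM with NaCl and 25.9, 27 and 22.4 CPM after 25 mg/kg (-1.15 (adjusted p = 0.0066, SE 0.20); -0.93 with the offset). Treated and control libraries were separate in both. Zbtb20, a repressor that spans 767 kb, fell by 1.46 without the offset and had -0.10 (adjusted p = 0.83) with it, and Nfib went from -1.44 to -0.35 (adjusted p = 0.29). Falls numbered 8, 8 or 7 without NaCl 1, 2 or 3, and 7, 10 or 6 without 25 mg/kg 1, 2 or 3.

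Nuclear receptors and their coactivators gave 2 rises and 6 falls among 41 (3 and 4 with the offset). These are 4.88% and 14.6%, beside 5.90% and 7.56% of all genes. The list's median span was 47.1 kb, against 23.8 kb for all genes tested. Rxra, the partner of most metabolic nuclear receptors, stood at 595, 665 and 576 CPM with NaCl and 251, 244 and 138 CPM after 25 mg/kg, a log2 fold change of -1.54 (adjusted p = 0.0068, SE 0.26) and -1.17 (adjusted p = 0.026) with the offset. Thrb, the thyroid hormone receptor of liver, stood at 49.4, 30.6 and 42.4 CPM with NaCl and 3.98, 7.58 and 6.66 CPM after 25 mg/kg, a log2 fold change of -2.75 (adjusted p = 0.0024, SE 0.36) and -1.67 (adjusted p = 0.013) with the offset. No treated library reached the control range. Esr1, the oestrogen receptor alpha gene, spans 394 kb; its log2 fold change of -0.87 (SE 0.19) became 0.23 (adjusted p = 0.37) with the offset, which is the other direction, and its call also ended without NaCl 1, NaCl 3, 25 mg/kg 1 or 25 mg/kg 3 (highest adjusted p 0.37). Receptor falls numbered 4, 5 or 3 without NaCl 1, 2 or 3, and 3, 6 or 3 without 25 mg/kg 1, 2 or 3, and rises 0, 0 or 0 without NaCl 1, 2 or 3, and 1, 0 or 0 without 25 mg/kg 1, 2 or 3.

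Wnt and pericentral zonation genes gave 3 rises and 7 falls among 36, or 1 and 4 with the offset. Without the offset the shares are 8.33% and 19.4%, beside 5.90% and 7.56% of all genes. Lgr4, a receptor for R-spondins, stood at 59.9, 39.9 and 46.4 CPM with NaCl and 12.1, 20.1 and 12.6 CPM after 25 mg/kg, a log2 fold change of -1.71 (adjusted p = 0.012, SE 0.34). Znrf3, the ubiquitin ligase that removes Wnt receptors and is itself a Wnt target, stood at 8.61, 8.84 and 7.03 CPM with NaCl and 1.25, 2.86 and 1.41 CPM after 25 mg/kg, a log2 fold change of -2.15 (adjusted p = 0.0064, SE 0.36). Both were separate from the controls and were called with the offset (-1.29 and -1.45), and Lgr4 lost its call without 25 mg/kg 1 or 25 mg/kg 3 (highest adjusted p 0.059). Falls numbered 6, 5 or 5 without NaCl 1, 2 or 3, and 3, 6 or 3 without 25 mg/kg 1, 2 or 3, and rises 2, 1 or 0 without NaCl 1, 2 or 3, and 0, 2 or 0 without 25 mg/kg 1, 2 or 3. Among semaphorins, plexins and ephrins 3 of 37 (8.11%) rose, Epha2 and Sema4f among them, and 9 (24.3%) fell (4 with the offset). The Sema4f call adds no support, as stated above. Sema4b stood at 24.5, 25.3 and 28.3 CPM with NaCl and 7.8, 6.91 and 6.28 CPM after 25 mg/kg (-1.90 (adjusted p = 0.019, SE 0.42)), and its call ended without NaCl 3, 25 mg/kg 1 or 25 mg/kg 3 (highest adjusted p 0.079). Falls of that family numbered 2, 4 or 0 without NaCl 1, 2 or 3, and 1, 5 or 0 without 25 mg/kg 1, 2 or 3.

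Long genes of chromatin and calcium control were among the genes that fell. Chromatin regulators gave 20 falls and 2 rises among 67 (median -0.30, median span 80.5 kb), and 7 falls and 4 rises with the offset (median -0.07). Without the offset these are 29.9% and 2.99%, beside 7.56% and 5.90% of all genes. Arid1b, a subunit of the SWI/SNF remodeller, stood at 55.1, 48.8 and 50.1 CPM with NaCl and 7.97, 10.8 and 8.61 CPM after 25 mg/kg, a log2 fold change of -2.49 (adjusted p = 0.00057, SE 0.22) and -1.44 (adjusted p = 0.0025) with the offset. Hdac4, a class IIa histone deacetylase, stood at 19.2, 14.6 and 16.2 CPM with NaCl and 2.05, 2.46 and 2.22 CPM after 25 mg/kg, a log2 fold change of -2.89 (adjusted p = 0.00086, SE 0.28) and -1.93 (adjusted p = 0.0036) with the offset. For both genes every treated library was several-fold under the controls. Kmt2c, a histone H3K4 methyltransferase, and Ncoa2, a nuclear receptor coactivator, fell by 1.81 and 1.85 (-0.92 and -0.96 with the offset). Chromatin falls numbered 12, 16 or 10 without NaCl 1, 2 or 3, and 10, 16 or 9 without 25 mg/kg 1, 2 or 3, and rises 1, 0 or 0 without NaCl 1, 2 or 3, and 1, 1 or 0 without 25 mg/kg 1, 2 or 3.

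Calcium stores and channels gave 7 falls and 0 rises among 45 (median -0.39), and 3 falls with the offset. Without the offset the falls are 15.6%, beside 7.56% of all genes. Itpr1 and Itpr2, receptors that release calcium from the endoplasmic reticulum, fell by 1.75 and 1.67, but with the offset their values were -0.68 (adjusted p = 0.053) and -0.55 (adjusted p = 0.15). Atp2b2, a calcium pump of the plasma membrane, stood at 50.6, 44.9 and 42.5 CPM with NaCl and 8.93, 7.25 and 11.5 CPM after 25 mg/kg, a log2 fold change of -2.31 (adjusted p = 0.0026, SE 0.31), and passed with the offset at -1.28 (adjusted p = 0.035). Other long genes called in both fits were Hipk2, a stress kinase (-1.90 and -1.11 with the offset), Mical2, an actin-oxidising enzyme (-1.89 and -1.08), Adcy9, an adenylyl cyclase (-2.08 and -1.46), and Ralgps1, an exchange factor of Ral (-2.77 and -1.88). Falls of calcium genes numbered 6, 7 or 6 without NaCl 1, 2 or 3, and 6, 10 or 6 without 25 mg/kg 1, 2 or 3.

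Genes of DNA damage signalling and repair gave 2 rises and 5 falls among 60, a share of rises under the background, with a median of -0.12 and 2 falls with the offset. The kinases Atm and Prkdc were both lower: Atm stood at 4.3, 4.6 and 5.12 CPM with NaCl and 1.08, 1.93 and 1.03 CPM after 25 mg/kg (-1.80 (adjusted p = 0.0094, SE 0.34); -1.38 (adjusted p = 0.031) with the offset), and Prkdc fell by 1.43 without the offset and had -0.59 (adjusted p = 0.28) with it, and was not called without NaCl 3 or 25 mg/kg 1 (highest adjusted p 0.28). The Atm call ended without 25 mg/kg 3 (adjusted p 0.051). Parp1, which marks DNA breaks with ADP-ribose, stood at 57.3, 66.1 and 64 CPM with NaCl and 38.9, 41.7 and 39.1 CPM after 25 mg/kg (-0.65 (adjusted p = 0.022, SE 0.15)), separate from the controls, and lost its call without NaCl 2, NaCl 3, 25 mg/kg 1 or 25 mg/kg 3 (highest adjusted p 0.085). Falls of this group numbered 4, 3 or 1 without NaCl 1, 2 or 3, and 1, 5 or 1 without 25 mg/kg 1, 2 or 3, and rises 0, 0 or 0 without NaCl 1, 2 or 3, and 0, 2 or 0 without 25 mg/kg 1, 2 or 3.

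Coagulation, fibrinolysis and complement genes gave 3 falls among 49 (median -0.18), or 6.12% against 7.56% of all genes, namely Fgg, Mbl1 and Pros1. Mbl1, a mannose-binding lectin, stood at 152, 127 and 151 CPM with NaCl and 81.3, 74.1 and 75.8 CPM after 25 mg/kg, a log2 fold change of -0.89 (adjusted p = 0.018, SE 0.20). Saa4, a serum amyloid A made constitutively, stood at 792, 459 and 714 CPM with NaCl and 171, 126 and 106 CPM after 25 mg/kg (-2.29 (adjusted p = 0.027, SE 0.56)), and Itih4, an inter-alpha inhibitor chain, at 6614, 3975 and 5609.9 CPM with NaCl and 2668, 2779 and 2173 CPM after 25 mg/kg (-1.09 (adjusted p = 0.027, SE 0.27)). All were below the control range in each treated library. The calls were fragile: that of Mbl1 ended without NaCl 1, NaCl 3, 25 mg/kg 1 or 25 mg/kg 3, and those of Saa4 and Itih4 ended without NaCl 1, NaCl 3 or any 1 of the 25 mg/kg libraries (highest adjusted p 0.073, 0.11 and 0.1). Falls of the coagulation group numbered 0, 2 or 0 without NaCl 1, 2 or 3, and 0, 4 or 0 without 25 mg/kg 1, 2 or 3, 1 without 50 mg/kg 1 and 5 without 50 mg/kg 2.

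The remaining groups held few calls. Shares close to the 5.90% and 7.56% of all genes were also found in groups described above: rises made up 8.11% of proteasome subunits, 6.9% of amino acid transporters and 5.56% of one-carbon genes, and falls 8.33% of DNA damage genes. Polyamine metabolism gave 1 rise among 15 (6.67%), Sat1, which acetylates spermidine. KLF and SP factors gave 1 rise (Klf6) and 1 fall (Klf12) among 21, or 4.76% each way. Carboxylesterases, flavin monooxygenases and epoxide hydrolases gave 1 rise among 23 (4.35%), Aadac. Each of these shares is near or under that of all genes. Sat1 stood at 63.9, 34.8 and 63.3 CPM with NaCl and 107, 107 and 108 CPM after 25 mg/kg, and Klf6 at 21.7, 7.07 and 16 CPM with NaCl and 42.2, 40.6 and 70.2 CPM after 25 mg/kg. Neither Sat1, Klf6 nor Aadac was called with the offset (0.68, 1.53 and 0.79), and single libraries ended the calls of Sat1 (NaCl 3 or any of 25 mg/kg), Klf6 (NaCl 2, NaCl 3, 25 mg/kg 1 or 3) and Aadac (NaCl 2 or 3), with highest adjusted p of 0.15, 0.12 and 0.066. No member was called by edgeR among 23 cytosolic aminoacyl-tRNA synthetases, 78 nuclear-encoded respiratory chain subunits and 35 mitochondrial import and proteostasis genes. At an unadjusted p under 0.05 these held 3, 1 and 3 members, DESeq2 called 1, 0 and 1, and limma-voom called 0 in each. The share of all genes under that unadjusted threshold is not given here. Their medians were 0.06, 0.20 and 0.17, and with the offset -0.02, -0.04 and -0.07; under the offset 1 respiratory chain gene was called higher.

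**Figure D3:**
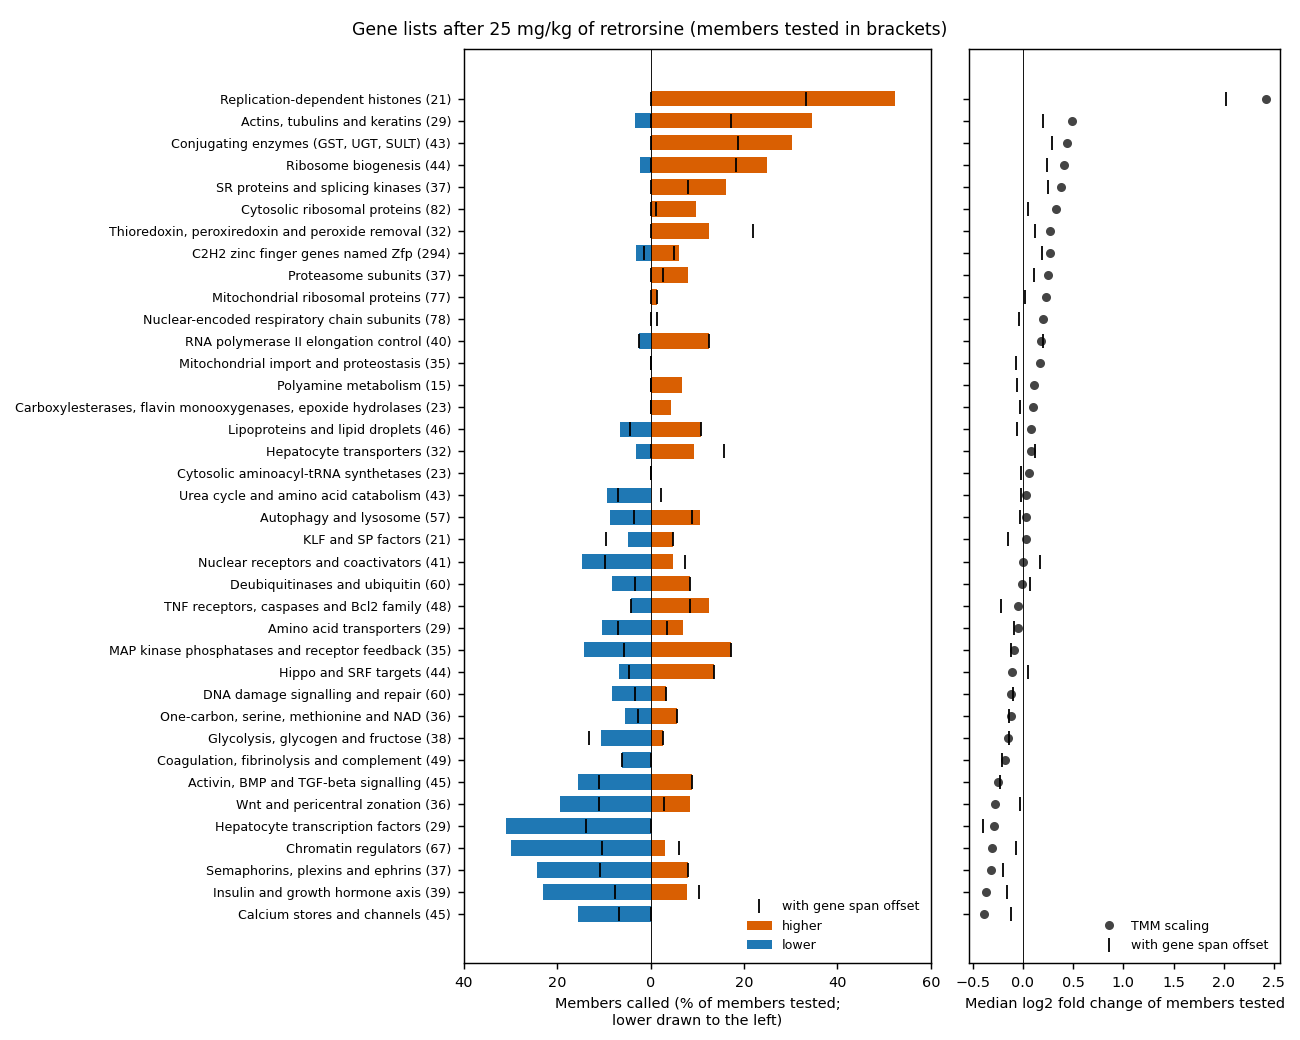
For each of 38 gene lists, the percentage of tested members called higher (orange, to the right) and lower (blue, to the left) after 25 mg/kg, and the median log2 fold change of the tested members (right panel); black ticks give the same with the gene span offset, and the number tested stands in brackets. Histones, actins with tubulins and keratins, conjugating enzymes and ribosome biogenesis factors have the longest orange bars, and the blue bars of chromatin, calcium and insulin genes are shorter with the offset.

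Finally, the low dose was set beside 50 mg/kg, which shares its NaCl controls. Between the doses 1 gene, or 0.00796% of those tested, was called by edgeR, Acacb, while 1079 had an unadjusted p under 0.05, DESeq2 called 71 and limma-voom 1. Acacb stood at 329, 339 and 372 CPM after 50 mg/kg, above all 25 mg/kg libraries and just under the controls, a log2 difference of 50 from 25 mg/kg of 1.47 (SE 0.15, adjusted p = 0.021). That call was absent with library totals, with a replicate block, with the gene span offset, with only the compared groups in the fit and without any 1 of NaCl 2, NaCl 3, the 25 mg/kg libraries, 50 mg/kg 2 or 50 mg/kg 3; without 25 mg/kg 1 or 50 mg/kg 3 the 1 gene called was a different gene. The other genes described here were not called between the doses. They were taken because they were called against NaCl and had the lowest p between the doses, 5 in each direction, so a distance of 25 mg/kg from both other groups is part of how they were chosen, and their values are a description. Acaca was at 105, 132 and 105 CPM after 50 mg/kg, between the other groups. Elovl6, a fatty acid elongase, was at 342, 237 and 294 CPM with NaCl, 86.1, 80.6 and 115 CPM after 25 mg/kg and 244, 377 and 245 CPM after 50 mg/kg. For Gpd2, the mitochondrial glycerol phosphate dehydrogenase, the levels were 40.4, 31.4 and 39.8 CPM with NaCl, 12.8, 14.3 and 17 CPM after 25 mg/kg and 31.2, 32.3 and 30.3 CPM after 50 mg/kg. Pklr, the pyruvate kinase of liver, was at 339, 585 and 487 CPM with NaCl, 225, 245 and 246 CPM after 25 mg/kg and 739.8, 469 and 603 CPM after 50 mg/kg. In Acaca, Acacb, Elovl6, Gpd2 and Pklr the 25 mg/kg libraries were lower than every library of both other groups.

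In the other direction, Hpgd, which degrades prostaglandins, was at 68.4, 71.2 and 82.8 CPM with NaCl, 108, 135 and 135 CPM after 25 mg/kg and 70.3, 83 and 55.2 CPM after 50 mg/kg. Gas2, a protein that links actin and microtubules, was at 34.5, 27 and 26.9 CPM with NaCl, 46.8, 55 and 38.5 CPM after 25 mg/kg and 24.8, 27.6 and 27.3 CPM after 50 mg/kg, and Lilra5, a leukocyte receptor gene, at 4.44, 4.24 and 5.27 CPM with NaCl, 8.99, 8.31 and 9.64 CPM after 25 mg/kg and 5.59, 4.03 and 4.09 CPM after 50 mg/kg. For these 3 genes the 25 mg/kg libraries were the highest of all. Btbd19, a BTB domain gene, was at 1.75, 1.92 and 1.61 CPM with NaCl, 14.5, 6.05 and 19.3 CPM after 25 mg/kg and 23.9, 63.4 and 62.4 CPM after 50 mg/kg. Among the genes described above, Lpin2 stood at 589, 277 and 225 CPM after 50 mg/kg, with 1 library at the level of the low dose and the other 2 nearer to the controls, and Gclc stood at 501, 428 and 336 CPM. The adjusted p between the doses was 0.55 for Lpin2 and 0.55 for Gclc, which does not show that the doses act alike.

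**Figure D4:**
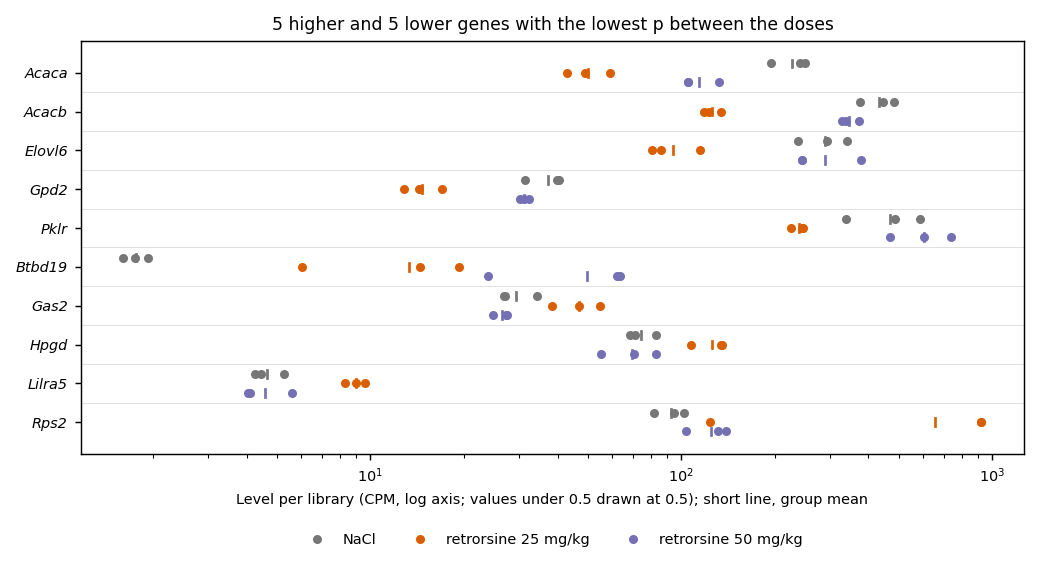
Levels of 10 genes called after 25 mg/kg, namely the 5 higher and the 5 lower with the lowest p between the doses, in CPM per library on a log axis, with NaCl in grey, 25 mg/kg in orange and 50 mg/kg in purple; each dot is a library and the short line is the group mean. In Acaca, Acacb, Elovl6, Gpd2 and Pklr the orange dots lie to the left of all others. In Gas2, Hpgd and Lilra5 they lie to the right, and in Rps2 1 of 3 orange dots lies near the other groups.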

How the data were processed

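Poly(A) RNA of liver was sequenced in 9 libraries, 3 per group. Per the submitters' processing notes, HISAT2 and the mouse build GRCm38 were used; the counter, annotation release and strand setting are not stated in those notes or the labels. The deposited table holds raw read counts per gene made by the authors, and FPKM values of the authors, which were printed for a pair of genes and not tested.

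Counts were filtered with filterByExpr, scaled with TMM and fitted in edgeR 4.0.16 (R 4.3.3) with 1 mean per group over all 9 libraries; p-values are from its quasi-likelihood test and were adjusted over all genes tested (Benjamini-Hochberg). SEs were taken as the size of the log2 fold change divided by the root of the F statistic. The gene span offset is a lowess curve (fraction 0.3) per library of log2 CPM (prior count 2) deviations on log10 gene span. The procedure was tested on simulated data. Alternatives used DESeq2 1.42.0, limma-voom (limma 3.58.1), other scalings and filters, a block for replicate number, and fits without 1 library each.

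The comparison, the gene lists and the rule for named genes were chosen with earlier results of these data known. Named genes had a mean of at least 1 CPM and were the 12 largest changes each way called in both fits with groups apart, the 10 lowest p, the 10 largest CPM differences, up to 4 called members per list, the 5 in each direction with the lowest p between doses, and 8 stress and ferroptosis genes (184 in all, from which the text takes examples). Total counts of 15241261 to 18691736 per library set the counting precision; reads carried no stated molecular identifiers. Within each group, pairs of libraries differed by more than counting noise (chi-square per gene 43.95 to 112.6 on average), so no pair was taken for 1 library deposited more than once; this does not show that they came from separate animals.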

Additional observations from a re-analysis of the deposited data

Results flagged for a closer look

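The response of Acacb differed between the doses by edgeR's test of the difference itself: the log2 difference of 50 from 25 mg/kg was 1.47, with levels of 122, 119 and 135 CPM after 25 mg/kg and 329, 339 and 372 CPM after 50 mg/kg in 3 libraries each. The call was lost with library totals, the replicate block, the gene span offset or only the groups compared, and without any 1 of NaCl 2, NaCl 3, the 25 mg/kg libraries, 50 mg/kg 2 or 50 mg/kg 3.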

How the results depend on the processing

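The 1690 genes called after 25 mg/kg became 977 with the gene span offset and 110 when a log2 fold change of at least 1 was tested for; the latter test asks a stricter question. Leaving out 1 library gave 626 to 1850 calls, the fewest without 25 mg/kg 3, then 751 without NaCl 3, 753 without 25 mg/kg 1, 896 without NaCl 1 and 1068 without NaCl 2. The offset without NaCl 1, an alternative chosen after the data were seen because that library was rich in pancreas reads, gave 395. DESeq2 size factors, upper-quartile scaling, library totals, DESeq2, limma-voom, the other filters, omission of acinar genes and a fit of only the groups compared gave counts within 1.5 times the first.

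With a replicate block 1108 genes were called after 25 mg/kg, 458 higher and 650 lower, and 0 between the doses. Same-numbered libraries deviated together with correlations of -0.23 to 0.136, not all above 0.1, so the numbers were not taken as pairs.

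Between the doses the count of 1 became 0 with library totals, the gene span offset or only the groups compared, and 71 with DESeq2. Leaving out 1 library gave 0 to 3. Esr1 was the named gene that reversed, at 0.23 with the gene span offset; its span of 394 kb is what the offset acts on. Of 174 named genes called, 89 were called in all 20 alternatives. For the other named genes the cause of a lost call was not tested. With 3 libraries per group, low genes such as Sprr1a, Casq1, Bmp8b, Sema4f, Gsta1 and Ugt2b37 rest on few control reads, and their fold changes are imprecise. These genes and Fst passed the filter on low counts only through retrorsine libraries, so their calls add no support.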
